A study of Mus musculus with 14 samples.

Results

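Gdf9, Bmp15, Kit, Oosp1 and E330017A01Rik were followed through oocyte maturation in mice that lost Mff from their oocytes. They are a chosen set of 5 genes. Gdf9, Bmp15 and Oosp1 encode proteins the oocyte secretes, and Kit the receptor by which it listens to its follicle. E330017A01Rik was chosen with them, though no secreted role is annotated for it in the sources used here. The 5 genes were found by symbol among the 18507 genes of the deposited tables, and all 5 were listed at both stages. The largest difference between genotypes lay in E330017A01Rik, which was 11.6-fold higher in ovulated CKO oocytes than in ovulated WT oocytes and did not pass the test between genotypes at the germinal vesicle (GV) stage. Kit was higher in ovulated than in GV oocytes of both genotypes, and none of Gdf9, Bmp15, Kit and Oosp1 passed the test between CKO and WT at either stage.

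CKO oocytes had the genotype Mff fl/fl;Gdf9-Cre and WT oocytes the genotype Mff fl/fl, so the floxed alleles were shared and the Cre was not. There were 3 ovulated CKO, 3 ovulated WT, 4 GV CKO and 4 GV WT libraries. A GV oocyte rests in the first meiotic prophase, and an ovulated one has resumed meiosis and left the follicle. In Gdf9-Cre mice the promoter of Gdf9 drives the recombinase in oocytes, starting in early follicles. Loss of Mff and presence of the Cre transgene cannot be told apart in this design. Values of GV and ovulated libraries were deposited separately, so stage and any difference in handling between these sets cannot be told apart either. That limit covers the stage comparisons and the interaction of genotype and stage. The sources used here do not give the age of the mice, how many oocytes and animals stand behind a library, or whether replicates came from separate animals. The spread behind each p-value is therefore that between libraries, which may be technical.

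GDF9 and BMP15 are growth factors of the TGF-beta family that the oocyte secretes. They act on the surrounding granulosa and cumulus cells through BMPR2 and type I receptors, which signal through SMAD proteins, and mice lacking Gdf9 are infertile with follicles arrested early. KIT is a receptor tyrosine kinase on the oocyte surface that binds KIT ligand from granulosa cells and signals through PI3K and AKT to FOXO3, which holds primordial follicles dormant. Oosp1 encodes oocyte secreted protein 1, from a cluster with Oosp2 and Oosp3 on chromosome 19. E330017A01Rik carries the symbol Ftdc2 in RefSeq and lies on chromosome 16, outside that cluster. No secreted role is annotated for it in the tables used here, so it is described by its symbol and not as a secreted factor.

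In RefSeq's GRCm38.p6 the genes lie at chr11:53430774-53437904 (Gdf9), chrX:6314054-6320724 (Bmp15), chr5:75574987-75656722 (Kit), chr19:11667460-11691051 (Oosp1) and chr16:58635262-58638403 (E330017A01Rik). Gdf9 overlaps Uqcrq, a gene for a respiratory chain subunit, by 58 bases. Whether the authors counted by strand is not given, so reads in that stretch cannot be assigned with certainty. The other 4 overlapped no annotated gene. Kit is counted per gene, so reads of the full receptor and of its truncated testis form Tr-kit were not separated.

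RefSeq promoters of GRCm38.p6 were available for Bmp15, Kit, Oosp1 and E330017A01Rik. Each was searched on both strands, over the 250 bases before the start of transcription, for the E-box CANNTG, bound by FIGLA among other factors, and for the NOBOX element in the form TAATTG, in the form TAATTA or in the form TAGTTG. Oosp1 and E330017A01Rik, a pair with unlike behaviour between stages and genotypes, are shown here with E-boxes and NOBOX elements in capitals.
Oosp1, chr19:11691052-11691301, minus strand: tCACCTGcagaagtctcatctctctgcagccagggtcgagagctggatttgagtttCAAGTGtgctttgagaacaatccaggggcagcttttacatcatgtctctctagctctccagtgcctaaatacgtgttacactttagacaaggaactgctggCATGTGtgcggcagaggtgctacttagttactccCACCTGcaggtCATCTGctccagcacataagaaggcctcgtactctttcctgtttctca
E330017A01Rik, chr16:58638404-58638653, minus strand: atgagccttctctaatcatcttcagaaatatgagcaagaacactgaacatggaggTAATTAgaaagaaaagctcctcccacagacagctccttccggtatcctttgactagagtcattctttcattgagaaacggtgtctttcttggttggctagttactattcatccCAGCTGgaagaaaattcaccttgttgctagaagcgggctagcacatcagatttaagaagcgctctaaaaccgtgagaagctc
The Oosp1 window held 5 E-boxes and 0 NOBOX elements, and the E330017A01Rik window held 1 of each. Bmp15 also had 1 of each. Kit had 0 of either at the start searched, which was 1 of its 2 listed starts. Of 27025 RefSeq promoters of this length, 1 per gene, 66.0% held an E-box and 16.3% a NOBOX element. A match is a description of the letters and not a bound site.

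The end of the message is shown as well, because storage and use of mRNA in maturing oocytes depend on the poly(A) tail. The cytoplasmic polyadenylation element (CPE) binds CPEB proteins and governs tail length. The last 100 bases of each annotated transcript of GENCODE M21 (GRCm38) were searched on the sense strand for the CPE in the form TTTTAT, in the form TTTTAAT or in the form TTTTAAAT, and for the poly(A) signal as AATAAA or in the form ATTAAA. For each gene 30 bases are printed, with CPEs and poly(A) signals in capitals.
Gdf9, chr11:53437858-53437887, plus strand: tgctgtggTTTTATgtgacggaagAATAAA
Bmp15, chrX:6314129-6314158, minus strand: ttatgtattttcttaatcttaaagAATAAA
Kit, chr5:75656672-75656701, plus strand: ctgttgacagttctgaagaattctAATAAA
Oosp1, chr19:11667530-11667559, minus strand: ATTAAAgAATAAAaatttcccattagtgcc
E330017A01Rik, chr16:58635179-58635208, minus strand: aaagtatcctgagggtatgcatacATTAAA
Gdf9 alone among the 5 had a CPE in the window, starting 39 bases before the transcript end and ahead of a poly(A) signal at 23 bases. The poly(A) signal started 28 bases before the transcript end in Bmp15 and 27 in Kit. For Oosp1 the printed stretch starts 100 bases before the transcript end, at the far edge of the window. It holds both signals found for Oosp1, and none was found between that stretch and the end. Across 12328 tested genes a CPE occurred in 21.9% and a poly(A) signal in 81.5%. E330017A01Rik has the variant signal ATTAAA at 18 bases before its GENCODE end. Its printed stretch lies outside the RefSeq interval given above, chr16:58635262-58638403, so RefSeq and GENCODE end this gene at different places.

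Library totals were 26575593 to 28847424 estimated counts, so depth differed little. Levels are CPM, counts scaled to a common library size, after TMM normalisation of all 14 libraries together. The exceptions are FPKM, which also divides by transcript length and is named where used, and the sums of marker and cumulus genes. Those sums, and the highest levels of individual markers given beside them, are CPM of each library's total, without TMM. The targeted gene Mff measured 43.0 ± 11.6 CPM in ovulated CKO and 433.1 ± 220.4 CPM in ovulated WT oocytes (SD, n = 3 each), and 39.6 ± 7.34 CPM in GV CKO and 750.0 ± 225.6 CPM in GV WT oocytes (SD, n = 4 each). Its groups did not overlap at either stage. The 10 oocyte markers were above 0 in every library, with sums of 14311 to 26446 CPM. Granulosa and cumulus markers summed to 138.4 to 170.2 CPM in ovulated CKO, 170.1 to 197.9 CPM in ovulated WT, 175.5 to 359.6 CPM in GV CKO and 214.6 to 314.7 CPM in GV WT libraries, and most of this was Esr2 and Cyp19a1. Among granulosa markers Foxl2, Amh and Wt1 were unlisted or at most 0.179 CPM, while Hsd3b1 reached 34.8, Cyp11a1 15.0, Inha 11.5, Gja1 7.85 and Lhcgr 3.84 CPM in GV libraries. Mast cell markers that could accompany Kit reads were unlisted or at most 0.149 CPM.

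GV CKO 1, GV CKO 2 and GV WT 2 lay apart from the other GV libraries along the leading principal component (43.8% of variance). The share of counts in the top 100 genes was 35.2%, 42.4% and 38.1% in them and 48.2% to 51.1% in the rest of the GV stage. Their granulosa and cumulus marker sums were 263.9, 359.6 and 314.7 CPM of library totals, against 175.5 to 241.1 CPM in the rest of the GV stage. They were the highest on that scale only: the sums were not computed with TMM, under which the order can differ. Several of the 5 genes differed in these libraries, so stage results are given with and without them. The choice thus rested in part on values of the genes then tested. Adjusted p-values from fits without these libraries are a description of how results move and not separate support. Those fits keep only GV CKO 3 and 4 and GV WT 1, 3 and 4 at the GV stage. Ovulated CKO 2 and WT 3 were the extremes of the leading component of the ovulated stage (50.3% of variance), and the top 100 share was 25.0% to 30.5% in ovulated CKO and 29.5% to 35.4% in ovulated WT libraries. The part of these differences, and of the marker sums, in the results below was not tested.

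**Figure D1:**
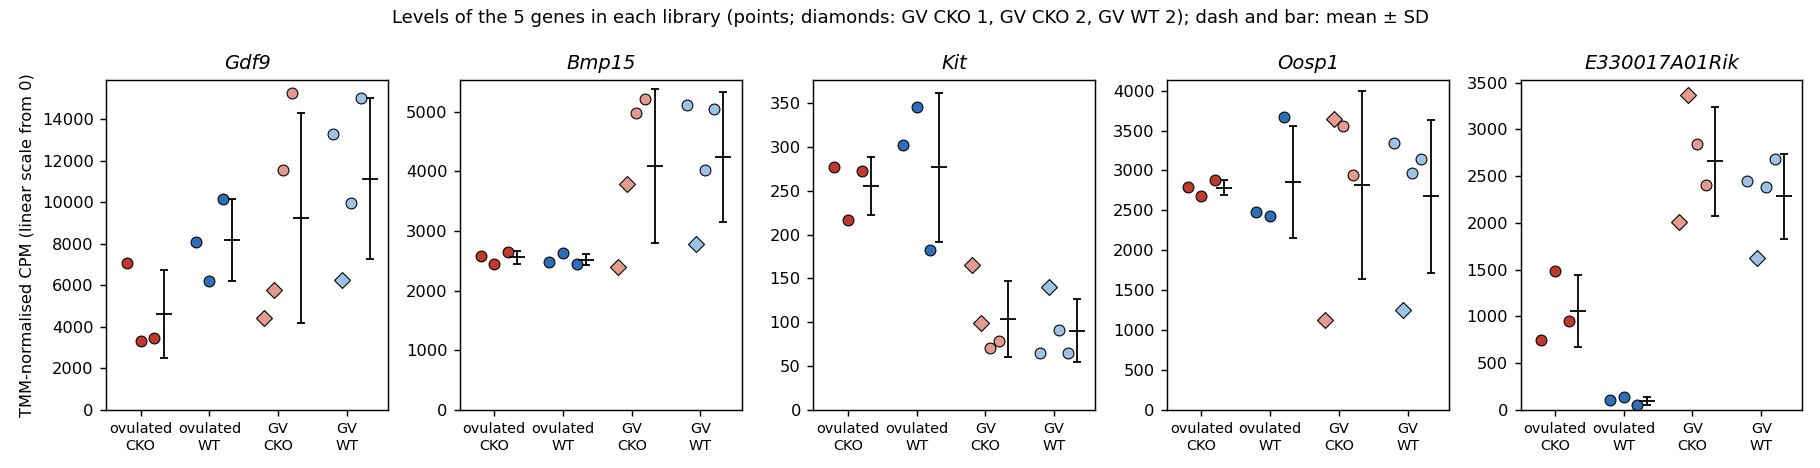
Levels of Gdf9, Bmp15, Kit, Oosp1 and E330017A01Rik in each of the 14 libraries, in TMM-normalised CPM on a linear axis from 0. Points are libraries, diamonds are the GV libraries CKO 1, CKO 2 and WT 2, and the dash with bar is the group mean ± SD. E330017A01Rik is lowest in the 3 ovulated WT libraries. On this CPM scale, though not in FPKM, Kit is higher in every ovulated library than in any GV library.

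Gdf9, the ligand whose promoter drives the Cre, was among the most abundant transcripts of the oocyte and above Bmp15 by mean FPKM in each group. Its level in ovulated CKO libraries 1 to 3 was 7062, 3321 and 3471 CPM, against 8091, 6212 and 10169 CPM in ovulated WT libraries 1 to 3. In GV CKO libraries 1 to 4 it was 4417, 5743, 11541 and 15256 CPM, against 13278, 6256, 9975 and 15021 CPM in GV WT libraries 1 to 4. Ovulated CKO 2 and 3 lay below all ovulated WT libraries, while CKO 1 lay within their range, and the GV groups overlapped.

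In ovulated oocytes Gdf9 had a log2 fold change of -0.79 for CKO over WT (SE 0.34, 95% confidence interval -1.51 to -0.08, adjusted p = 0.166, edgeR quasi-likelihood test). Without ovulated CKO 1 the log2 fold change was -1.24 and passed the test (edgeR adjusted p = 0.0268), and with limma's voomWithQualityWeights it was -0.88 (adjusted p = 0.0187). Gdf9 was thus not called, and its side of the threshold changed with 1 library and with the tool, among other settings. Without ovulated CKO 2 and WT 3 the log2 fold change was -0.39 (edgeR adjusted p = 0.605). In GV oocytes it was -0.29 (SE 0.45, edgeR adjusted p = 0.867), and 0.05 without the 3 libraries that stood apart.

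Between stages Gdf9 did not pass either. The log2 fold change of ovulated over GV was -1.0 in CKO (SE 0.43, edgeR adjusted p = 0.0594) and -0.45 in WT (SE 0.43, edgeR adjusted p = 0.363). Leaving out the 3 GV libraries gave -1.55 in CKO (edgeR adjusted p = 0.000898) and -0.66 in WT (edgeR adjusted p = 0.0609). The CKO difference also passed when ovulated CKO 1, GV CKO 1, GV CKO 2 or GV WT 2 alone was left out (edgeR adjusted p = 0.0152 to 0.0427). On FPKM the CKO difference was -0.37 and the WT difference 0.01, so the stage difference of Gdf9 depends on the scaling. In each group Gdf9 ranked high by mean FPKM, at place 16 in ovulated CKO, 10 in ovulated WT, 13 in GV CKO and 9 in GV WT oocytes.

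Bmp15, the partner ligand encoded on the X chromosome, was almost equal in CPM in all ovulated libraries. It measured 2576, 2440 and 2653 CPM in ovulated CKO libraries 1 to 3 and 2477, 2637 and 2451 CPM in ovulated WT libraries 1 to 3. The coefficient of variation was 4.22% in ovulated CKO and 3.98% in ovulated WT. In FPKM ovulated CKO libraries, at 1109 to 1236, lay above ovulated WT libraries, at 893 to 1033. The log2 fold change on FPKM was 0.25 and did not pass (limma adjusted p = 0.516). In GV CKO libraries 1 to 4 Bmp15 was 2392, 3790, 4983 and 5213 CPM, against 5120, 2784, 4030 and 5050 CPM in GV WT libraries 1 to 4. The lowest GV values belonged to CKO 1 and WT 2, of the 3 libraries that stood apart, and the GV genotypes overlapped.

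The genotype comparison of Bmp15 gave a log2 fold change of 0.05 in ovulated oocytes (95% confidence interval -0.46 to 0.57, edgeR adjusted p = 0.923) and -0.08 in GV oocytes (95% confidence interval -0.81 to 0.66, edgeR adjusted p = 0.952). Ovulated over GV, it fell by 0.75 on the log2 scale in WT (SE 0.30, edgeR adjusted p = 0.0346), and ovulated and GV WT libraries did not overlap. In CKO the log2 fold change was -0.68 (SE 0.30, edgeR adjusted p = 0.0628), with overlap through GV CKO 1. Without the 3 GV libraries both passed, at -1.01 in CKO (edgeR adjusted p = 0.000612) and -0.92 in WT (edgeR adjusted p = 0.0004). On FPKM the WT difference shrank to -0.29 (limma adjusted p = 0.135), which ends the call. Leaving out any 1 WT library other than GV WT 2 also ended it (edgeR adjusted p = 0.0521 to 0.0896), and in CKO the call was gained without GV CKO 1 (edgeR adjusted p = 0.00895) or GV WT 2 (edgeR adjusted p = 0.0403), which enters through the shared estimate of spread.

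Kit, the receptor, was called higher in ovulated than in GV oocytes of both genotypes, which held for none of the other 4. It measured 277.3, 217.1 and 272.6 CPM in ovulated CKO libraries 1 to 3 and 302.2, 346.3 and 182.5 CPM in ovulated WT libraries 1 to 3. GV CKO libraries 1 to 4 had 165.6, 99.6, 70.5 and 78.0 CPM, against 64.7, 140.7, 91.5 and 64.8 CPM in GV WT libraries 1 to 4. In CPM every ovulated library lay above every GV library. In FPKM ovulated WT 3, at 38.8, lay below GV CKO 1, at 42.3. Within the GV stage the 3 highest values were those of CKO 1, WT 2 and CKO 2, the libraries that stood apart.

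The log2 fold change of Kit for ovulated over GV was 1.31 in CKO (SE 0.33, edgeR adjusted p = 0.00296) and 1.61 in WT (SE 0.33, edgeR adjusted p = 0.000357). Without the 3 GV libraries it was 1.77 in CKO and 1.90 in WT. With the trend over transcript length removed from each library it was 0.75 in CKO (edgeR adjusted p = 0.00978) and 0.88 in WT (edgeR adjusted p = 0.00252), still past the test but smaller. Between genotypes Kit had a log2 fold change of -0.08 in ovulated oocytes (95% confidence interval -0.64 to 0.49, edgeR adjusted p = 0.900) and 0.20 in GV oocytes (95% confidence interval -0.52 to 0.91, edgeR adjusted p = 0.875).

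Oosp1, encoding oocyte secreted protein 1, had means of 2786 CPM in ovulated CKO, 2858 CPM in ovulated WT, 2818 CPM in GV CKO and 2677 CPM in GV WT oocytes and passed no test. Ovulated CKO libraries 1 to 3 had 2796, 2684 and 2878 CPM, against 2476, 2434 and 3665 CPM in ovulated WT libraries 1 to 3. GV CKO libraries 1 to 4 had 1119, 3650, 3559 and 2946 CPM, against 3346, 1255, 2967 and 3138 CPM in GV WT libraries 1 to 4. GV CKO 1 and WT 2 were far below the rest, and all groups overlapped in CPM. In FPKM ovulated CKO libraries, at 5224 to 6022, lay above GV CKO libraries, at 2176.5 to 5187. Ovulated WT libraries, at 4184 to 5982 FPKM, lay above GV WT libraries, at 2350 to 3848.

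The log2 fold change of Oosp1 for CKO over WT was -0.01 in ovulated oocytes (95% confidence interval -0.57 to 0.56) and 0.04 in GV oocytes (95% confidence interval -0.87 to 0.94). For ovulated over GV it was -0.02 in CKO and 0.09 in WT, and -0.23 in CKO and -0.15 in WT without the 3 GV libraries that stood apart, with no call (edgeR adjusted p = 0.410 and 0.521). On FPKM these stage values were 0.60 in CKO (limma adjusted p = 0.0484) and 0.54 in WT (limma adjusted p = 0.0676), and with the length trend removed 1.2 (edgeR adjusted p = 0.00884) and 1.77 (edgeR adjusted p = 0.000337), so the stage difference of this short transcript depends on the scaling.

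E330017A01Rik behaved unlike the other 4. Its level was 741.9, 1490 and 950.2 CPM in ovulated CKO libraries 1 to 3, against 104.2, 131.2 and 47.3 CPM in ovulated WT libraries 1 to 3. GV CKO libraries 1 to 4 had 2014, 3367, 2847 and 2411 CPM, against 2453, 1629, 2380 and 2682 CPM in GV WT libraries 1 to 4. The lowest ovulated CKO library was well above the highest ovulated WT library, all ovulated libraries lay below all GV libraries in CPM, and the GV genotypes overlapped. In FPKM ovulated CKO 2, at 4774, lay above GV CKO 4, at 4506, and above all GV WT libraries, at 3863 to 4486.

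Its log2 fold change for CKO over WT was 3.54 in ovulated oocytes (SE 0.38, 95% confidence interval 2.73 to 4.34, edgeR adjusted p = 0.000155) and 0.19 in GV oocytes (SE 0.27, edgeR adjusted p = 0.853). The difference between these genotype effects, tested as an interaction of genotype and stage, was 3.27 on the log2 scale (SE 0.49, 95% confidence interval 2.24 to 4.30, edgeR adjusted p = 0.00203). Ovulated over GV, it fell by 1.33 on the log2 scale in CKO (SE 0.35, edgeR adjusted p = 0.00394) and fell by 4.60 in WT (SE 0.41, edgeR adjusted p = 6.89e-08). Without the 3 GV libraries that stood apart these values were -1.32 in CKO and -4.75 in WT.

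Without ovulated CKO 2 and WT 3 the ovulated genotype difference was 2.90 (edgeR adjusted p = 0.00172), and with the length trend removed it was 2.48 (edgeR adjusted p = 0.00462). On FPKM with no filter on low values the call was lost (limma adjusted p = 0.084), a setting in which 1 gene in all was called. With the length trend removed the stage difference in CKO was -0.34 and no longer passed (edgeR adjusted p = 0.372), while that in WT was -2.78 and did. A change in share of the library is not a change in molecules per oocyte, and fewer cells and less RNA per cell cannot be told apart in these bulk totals.

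Set against all genes tested, 1 of the 5 genes was called between ovulated CKO and WT, E330017A01Rik, where 7.84% of 12010 tested genes were. Of those called genes 774 were higher and 168 lower in CKO, 626 and 40 on FPKM, and 537 and 260 with the length trend removed, so most calls shared the direction of E330017A01Rik. Between GV CKO and WT 0 of 5 were called, with the smallest unadjusted p at 0.497, and 0.0163% of 12298 genes were. For the interaction 1 of 5 was called, where 3.26% of 13199 genes were. Between ovulated and GV oocytes 2 of 5 were called in CKO, Kit and E330017A01Rik, where 54.4% of genes were, and 3 of 5 in WT, with Bmp15 added, where 66.4% were. The stage counts are thus near the background share of all genes. In CKO 23.2% of all genes were higher and 31.2% lower in ovulated oocytes (39.9% and 26.1% on FPKM), and in WT 30.3% were higher and 36.2% lower (42.5% and 33.0% on FPKM). Deposited FPKM in place of TMM-scaled counts moved the median stage difference of all genes by 0.48 in CKO and 0.39 in WT on the log2 scale, which is larger than some of the stage values of Gdf9, Bmp15 and Oosp1.

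**Figure D2:**
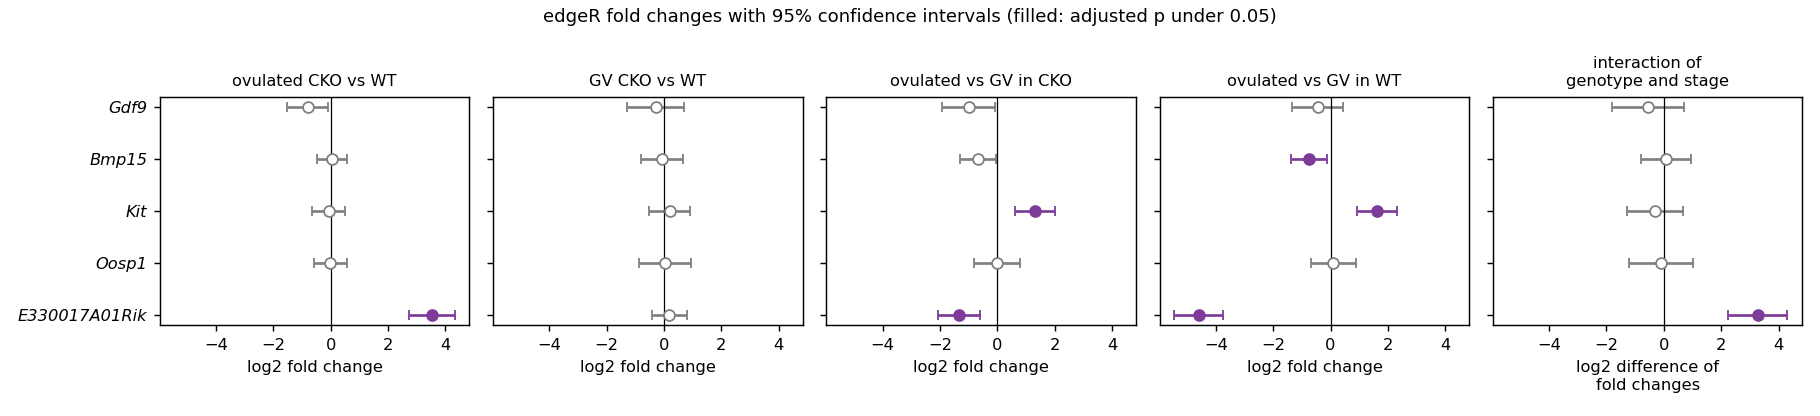
Log2 fold changes of the 5 genes in 4 comparisons and the log2 difference of the genotype effects between stages (last panel), with 95% confidence intervals from edgeR. Filled points have an adjusted p under 0.05: E330017A01Rik stands at 3.54 in ovulated oocytes and at 0.19 in GV oocytes, and Kit lies right of 0 in both stage comparisons.

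Levels were compared between genes in FPKM, as the authors normalised it within each stage's table. In ovulated CKO oocytes the order of mean FPKM was Oosp1 (5574), Gdf9 (3841), E330017A01Rik (3109), Bmp15 (1157) and Kit (67.4), and the ranges of the first 3 overlapped between neighbours. In ovulated WT oocytes it was Gdf9 (5730), Oosp1 (4846), Bmp15 (976.4), E330017A01Rik (230.6) and Kit (63.4), and only the ranges of Gdf9 and Oosp1 overlapped. E330017A01Rik thus stood above Bmp15 in ovulated CKO and below it in ovulated WT oocytes.

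In GV CKO oocytes the order of mean FPKM was E330017A01Rik (5495), Gdf9 (5048), Oosp1 (3840), Bmp15 (1242) and Kit (20.9), again with overlap among the first 3. In GV WT oocytes it was Gdf9 (5644), E330017A01Rik (4309), Oosp1 (3352), Bmp15 (1189) and Kit (16.7), with no overlap between neighbours. Kit was the lowest in all 4 groups.

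In a ratio between genes of 1 library any factor common to the whole library cancels, while a trend over transcript length does not. With the length trend removed, the fitted stage differences of Kit and Gdf9 were 0.75 and -0.01 in CKO and 0.88 and 0.58 in WT, closer together than the FPKM ratios below. The log2 ratio of E330017A01Rik over Oosp1 in FPKM averaged -0.94 ± 0.55 in ovulated CKO and -4.51 ± 1.09 in ovulated WT oocytes (SD, n = 3 each), a difference of 3.57. The ovulated groups did not overlap, and the exact two-sided permutation test gave p = 0.1, the smallest that 3 against 3 libraries allow. In GV oocytes the ratio averaged 0.57 ± 0.54 in CKO and 0.39 ± 0.37 in WT (SD, n = 4 each, exact permutation p = 0.571).

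The log2 ratio of Bmp15 over Gdf9 averaged -1.66 ± 0.57 in ovulated CKO and -2.53 ± 0.41 in ovulated WT oocytes (SD, n = 3 each, exact permutation p = 0.2), with overlap. The log2 ratio of Kit over Gdf9 averaged -5.77 ± 0.50 in ovulated CKO (n = 3) and -8.05 ± 1.34 in GV CKO oocytes (n = 4; SD, exact permutation p = 0.0571, the smallest that 3 against 4 allow). In ovulated WT it averaged -6.54 ± 0.83 and in GV WT -8.60 ± 1.09 (SD, exact permutation p = 0.114). Over the 12 comparisons of 3 ratios the lowest Benjamini-Hochberg adjusted p of these exact permutation tests was 0.229.

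**Figure D3:**
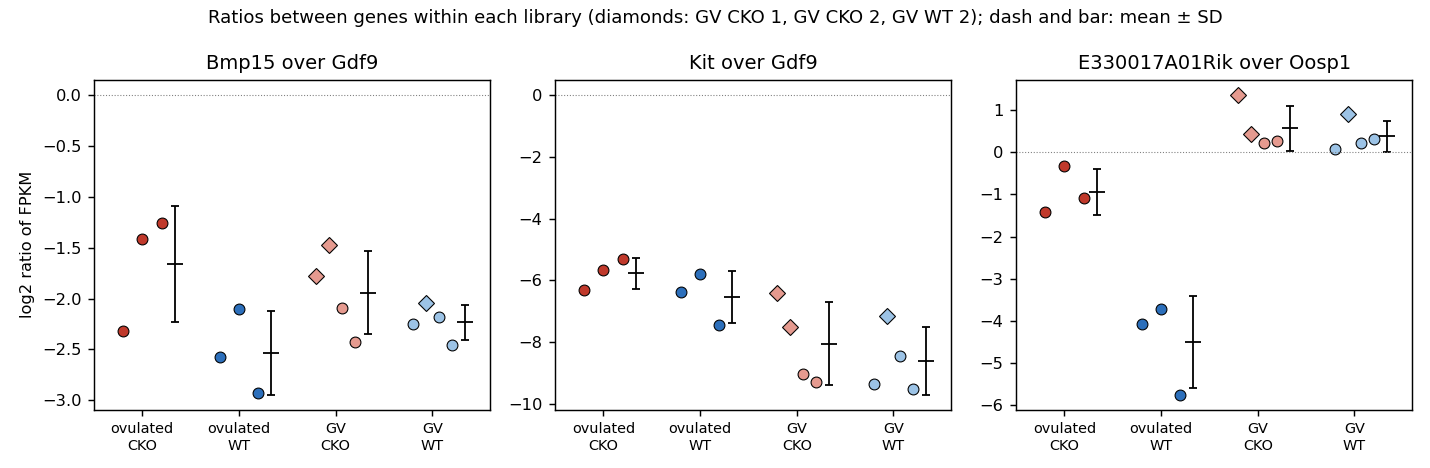
Log2 ratios of FPKM between genes within each library, for Bmp15 over Gdf9, Kit over Gdf9 and E330017A01Rik over Oosp1, with points, diamonds and bars (mean ± SD) marking libraries, the 3 GV libraries that stood apart, and groups. The ratio of E330017A01Rik over Oosp1 lies between -5.75 and -3.71 in ovulated WT libraries and between -1.42 and -0.34 in ovulated CKO libraries.

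The 5 genes did not follow one pattern across the 14 libraries. Pearson's r of log2(CPM + 1) was -0.91 between Kit and Bmp15, 0.76 between Gdf9 and Bmp15 and -0.06 between E330017A01Rik and Oosp1. The libraries differ in stage, genotype and composition, and the part of these in each r was not tested. The genes most like Gdf9 were Oas1d (r = 0.96), Hnrnpk (0.96) and Rnf4 (0.95), and those most like Bmp15 were Atg12 (0.98), Atg5 (0.96) and Khdc1c (0.96). Kit was followed most closely by Spast, Tlk2 and Tmtc1 (each 0.99), and Oosp1 by Rfpl4 (0.95), Npm1 (0.92) and Dazl (0.91). E330017A01Rik was followed by Hint1, Cetn2 and Fahd2a (each 0.99). Hint1, a nucleotide hydrolase, averaged 75.7 CPM in ovulated CKO and 4.25 CPM in ovulated WT oocytes, and 165.5 CPM in GV CKO and 146.3 CPM in GV WT oocytes.

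The receptors, SMADs and processing enzymes of GDF9 and BMP15 were mostly higher in ovulated than in GV oocytes, and few differed between genotypes. Of 23 tested genes, 14 were higher and 2 lower in ovulated CKO than in GV CKO oocytes, with a median log2 fold change of 1.32 against -0.19 over all genes, of which 54.4% were called. In WT 17 were higher and 1 lower, with a median of 1.68 against -0.17 over all genes, of which 66.4% were called. Furin, a protease that cleaves precursor growth factors, had a log2 fold change of 3.13 in CKO and 3.21 in WT, and Acvr2b, an activin receptor, 2.40 in CKO and 3.00 in WT. Bmpr1b, a type I receptor of BMP ligands, had 1.32 in CKO and 1.70 in WT, all with edgeR adjusted p of 0.000356 or lower. Without the 3 GV libraries, 15 were called in CKO and 17 in WT. In either direction, 17 were called in CKO and 16 in WT with the length trend removed, and 16 and 17 on FPKM. List medians were not computed under these settings, so the part of scaling and length in the medians above was not tested.

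Between ovulated CKO and WT 1 of 23 receptor and SMAD genes was called, Fkbp1a, which encodes a protein that binds type I receptors (log2 fold change -0.85, edgeR adjusted p = 0.0458), where 7.84% of all genes were, and 0 were called without ovulated CKO 2 and WT 3. The median log2 fold change between ovulated CKO and WT was -0.21, against -0.001 over all genes. Between GV CKO and WT 0 of 22 were called, with a median of 0.10 against 0.03 over all genes. For the interaction 0 of 23 were called, where 3.26% of all genes were. Its median was -0.40, against -0.07 over all genes.

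Of genes of KIT signalling through PI3K, AKT and mTOR, 17 of 29 were called higher and 2 lower in ovulated than in GV CKO oocytes, with a median log2 fold change of 1.08 against -0.19 over all genes, of which 54.4% were called. In WT 19 were higher and 3 lower, with a median of 1.42 against -0.17 over all genes, of which 66.4% were called. Those lower in both genotypes were Rps6 and Ptpn6, a phosphatase, and Pik3r2, a regulatory subunit of PI3K, was lower in WT. Akt1, the kinase downstream of PI3K, had log2 fold changes of 2.50 in CKO and 2.46 in WT. Foxo3, the transcription factor that AKT phosphorylates, had 1.74 in CKO and 2.02 in WT. Kitl, the ligand of KIT, had 1.54 in CKO (edgeR adjusted p = 0.00416) and 1.88 in WT (edgeR adjusted p = 0.000643). Without the 3 GV libraries, 19 were called in CKO and 22 in WT. In either direction, 17 were called in CKO and 19 in WT with the length trend removed, and 21 in each on FPKM. The part of scaling and length in the list medians was not tested here either.

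Between genotypes 1 of 28 KIT pathway genes was called in ovulated oocytes, Rps6, a ribosomal protein phosphorylated downstream of mTOR (log2 fold change 3.28, edgeR adjusted p = 0.0434), where 7.84% of all genes were. Its interaction of genotype and stage was called as well (3.06 on the log2 scale, edgeR adjusted p = 0.0368). Its mean was 1.28 CPM in ovulated CKO and 0.131 CPM in ovulated WT oocytes, and it has many near-identical pseudogenes, so its count is uncertain. Neither call held without ovulated CKO 2 and WT 3. In GV oocytes 0 of 29 were called.

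Among other secreted ligands and oocyte secreted proteins, Tgfb3, a TGF-beta ligand, was the 1 of 10 tested genes called between ovulated CKO and WT (log2 fold change 1.98, edgeR adjusted p = 0.00755), where 7.84% of all genes were. It averaged 16.5 CPM in ovulated CKO and 4.29 CPM in ovulated WT oocytes, against 57.9 CPM in GV CKO and 61.8 CPM in GV WT oocytes. The call was lost without ovulated CKO 2 and WT 3. Fgf8, which the oocyte uses to drive glycolysis in cumulus cells, had log2 fold changes for ovulated over GV of -3.91 in CKO and -5.57 in WT. In ovulated oocytes it had 1.31 for CKO over WT and did not pass (edgeR adjusted p = 0.235).

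Oosp2, the neighbour of Oosp1, fell by 1.18 on the log2 scale in ovulated against GV WT oocytes (edgeR adjusted p = 0.000746) and had 0.82 for CKO over WT in ovulated oocytes (edgeR adjusted p = 0.0678). Oosp3 had -0.34 in that comparison (edgeR adjusted p = 0.468). Of 11 secreted genes tested between stages, 2 were higher and 3 lower in CKO, where 54.4% of all genes were called. In WT 2 were higher and 5 lower, where 66.4% of all genes were called.

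Of 7 transcription factors that act upstream in the oocyte, 2 were called higher in ovulated CKO than in ovulated WT oocytes, where 774 of 12010 genes were. Figla, which activates zona pellucida genes through E-boxes, averaged 11.3 CPM in ovulated CKO and 0.691 CPM in ovulated WT oocytes (log2 fold change 4.06, edgeR adjusted p = 0.000309). Lhx8, a homeodomain factor of early oocytes, averaged 52.9 CPM in ovulated CKO and 15.9 CPM in ovulated WT oocytes (log2 fold change 1.77, edgeR adjusted p = 0.00508). Nobox, an oocyte homeobox factor for which Gdf9 is a known target in the mouse, had 0.55 and did not pass (edgeR adjusted p = 0.282). In GV oocytes 0 of 7 were called. Between stages 2 were higher and 3 lower in each genotype, with Nobox at -3.28 in CKO and -3.88 in WT. Of all genes, 54.4% were called between stages in CKO and 66.4% in WT. The interaction of genotype and stage was called for Figla (3.95 on the log2 scale, edgeR adjusted p = 0.000736), Lhx8 (2.08, edgeR adjusted p = 0.0289) and the ligand gene Tgfb3 (2.03, edgeR adjusted p = 0.0293). Without ovulated CKO 2 and WT 3, 1 of the transcription factors was called between ovulated CKO and WT.

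Cumulus genes that respond to GDF9 and BMP15, such as Has2 and Ptx3, were summed as CPM of library totals, without TMM. The sums were 0.405 to 0.719 CPM in ovulated CKO and 0.403 to 2.50 CPM in ovulated WT libraries. In GV libraries they were 0.405 to 0.789 CPM in CKO and 0.393 to 0.941 CPM in WT. Of these cumulus genes, 0 passed the filter on low counts in ovulated oocytes and 1 in GV oocytes, where it was not called. At these levels the action of the ligands on their target cells could not be read from these oocyte libraries.

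Markers of the oocyte itself also differed between ovulated groups. Of 10 oocyte markers 3 were called between ovulated CKO and WT, Zp2 (log2 fold change 2.33) and Zp3 (1.41) of the zona pellucida and Padi6 (1.58), needed by the early embryo. All 3 were higher in CKO, as were 774 of the 942 genes called in all, and 7.84% of all genes were called. The interaction was called for Zp2 (2.47 on the log2 scale, edgeR adjusted p = 0.0121) and Zp3 (1.60, edgeR adjusted p = 0.0420). Among these markers 0 were called between GV CKO and WT. Between stages 1 was higher and 5 lower in CKO, where 54.4% of all genes were called. In WT 0 were higher and 5 lower, where 66.4% of all genes were called. Of granulosa and cumulus markers, 0 of 8 tested were called between ovulated CKO and WT and 0 of 16 between GV CKO and WT. In ovulated against GV oocytes 2 of 15 of these markers were higher and 9 lower in each genotype. The share of all genes called was again 54.4% in CKO and 66.4% in WT. Of theca, blood and mast cell markers, 0 of 2 in ovulated and 0 of 3 in GV oocytes were called between genotypes, and the endothelial marker Pecam1 was higher in ovulated than in GV oocytes of both genotypes (log2 fold change 0.89 in CKO and 1.61 in WT).

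**Figure D4:**
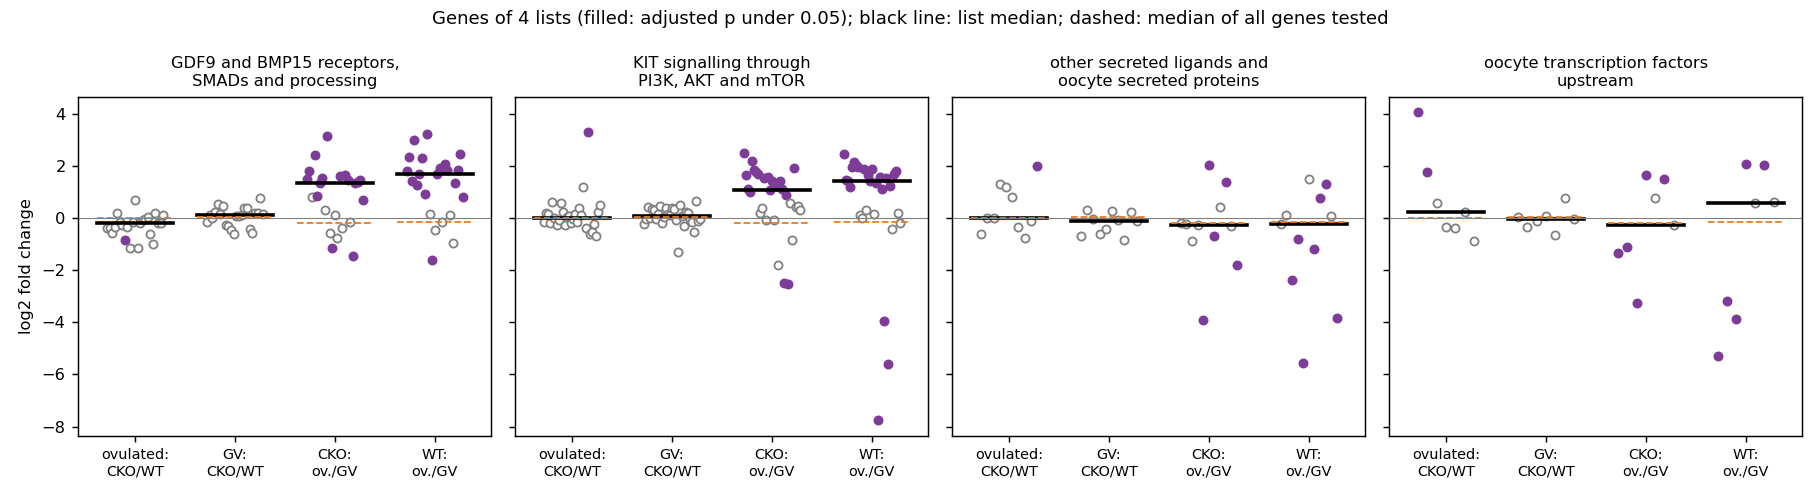
Log2 fold changes of the tested genes of 4 lists in the genotype comparisons of each stage and the stage comparisons of each genotype. Each point is a gene, filled where its adjusted p is under 0.05, with the list median as a black line and the median of all tested genes dashed. The receptor and KIT signalling lists have medians of 1.08 to 1.68 in the stage comparisons and -0.21 to 0.10 between genotypes.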

How the data were processed

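Mouse oocyte RNA was sequenced in 14 libraries. Per the labels' protocols, lysed samples were reverse transcribed with SMART-SeqII and the cDNA preamplified by PCR. For each stage the authors deposited gene read counts and, in another table, FPKM (scaled by transcript length and mapped fragments, per the file headers). Among count values above 0, 17.6% (GV) and 18.4% (ovulated) had a fraction beyond 0.001, so the deposited values were treated as estimated counts with no normalisation. The build was mm10, per the submitters' processing notes, and no source used here names the aligner or counter.

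Estimated counts were rounded and fitted with edgeR 4.0.16 in R 4.3.3 (filterByExpr, TMM, robust quasi-likelihood test), each stage alone for CKO against WT, and all libraries together over the 16196 genes in both tables for stage and interaction. P-values were adjusted by Benjamini-Hochberg over all genes tested, and an adjusted p under 0.05 was called. The fits were tested on simulated counts with 200 changed genes. Ratios were tested with an exact permutation test (SciPy 1.17.1). Alternatives used RLE factors, other filters, DESeq2 1.42.0, limma 3.58.1 (voom, or log2(FPKM + 1) and log2(FPKM + 0.1)), removal of a length trend, a replicate block and left-out libraries. Of 18507 gene identifiers, 18456 matched RefSeq. Counts cover sampling of PCR-amplified reads without molecular identifiers.

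The 5 genes, the 8 gene lists and the alternatives were chosen with earlier results of these data known. Named genes were the 5, Mff, the 3 most correlated genes of each (mean of at least 5 CPM in a group, no predicted models) and up to 3 called genes of each list with the smallest p. Bmpr1b, Kitl, Foxo3, Oosp2, Oosp3, Fgf8, Nobox, Ptpn6 and Pik3r2 were also given outside this rule in some comparisons, after their values were seen.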

Additional observations from a re-analysis of the deposited data

Results flagged for a closer look

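The genotype effect on E330017A01Rik differed between the stages by a test of the difference itself, an interaction of 3.27 on the log2 scale (edgeR adjusted p = 0.00203). All 3 ovulated CKO libraries lay above all 3 ovulated WT libraries, while the 4 GV CKO and 4 GV WT libraries overlapped. The interaction passed the test under each of the 26 alternatives run for it, with values from 2.43 to 3.59. In CPM, among the 5 genes, no GV group of 4 libraries held a library far enough from the others to be listed here. GV CKO 1 and WT 2 were low for Oosp1 but did not reach the cut-off. Other scales can differ: in FPKM, E330017A01Rik was 3863 in GV WT 1 and 4437 to 4486 in the other GV WT libraries.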

How the results depend on the processing

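Of 798 single values recomputed under the alternatives, 751 stayed on their side of the threshold, and 72 of these, uncalled in both settings, changed sign. A further 25 lost the call, 18 gained it, and 4 changed both sign and side of the threshold. For Oosp1, ovulated over GV in CKO, the log2 fold change was -0.02 and became 0.60 with FPKM and either pseudocount, and 1.2 with the length trend removed. For Mff, ovulated over GV in WT, the called value of -0.79 became 0.29 with the length trend removed and lost its call (edgeR adjusted p = 0.337).

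The number of the 5 genes called between ovulated CKO and WT was 1; it was 2 with voomWithQualityWeights, 0 with unfiltered FPKM and 1 to 2 when leaving out each library in turn. Between ovulated and GV oocytes in CKO it was 2; it was 4 with a mean of at least 10 CPM, 4 with voomWithQualityWeights, 4 without GV CKO 1, CKO 2 and WT 2, 1 with unfiltered FPKM and 2 to 4 when leaving out each library. Bmp15 between ovulated and GV WT lost its call in 12 of 26 alternatives. Why the calls moved was not tested.

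With the replicate block, 2 of the 5 genes were called between ovulated CKO and WT, Gdf9 at -0.85 (adjusted p = 0.0206) and E330017A01Rik, and Bmp15 lost its call between stages in WT (-0.74, adjusted p = 0.0673). Deviations from group means correlated between same-numbered CKO and WT libraries at 0.02 to 0.20 in ovulated and -0.34 to 0.45 in GV oocytes. Between libraries of different number they correlated at -0.18 to 0.08 and -0.55 to 0.57. With 3 or 4 libraries per group these values cannot settle whether equal numbers mark pairs. Over all genes, calls between ovulated CKO and WT numbered 942. They numbered 1 with unfiltered FPKM, 235 without CKO 2 and WT 3, 1630 with the replicate block and 1856 with voomWithQualityWeights. GV calls numbered 2, and 56 with DESeq2, 63 without the 3 GV libraries and 82 with voomWithQualityWeights. Interaction calls numbered 430, with 46 to 1006 under alternatives. Stage calls were 7183 in CKO and 8769 in WT, and 4458 and 5155 with a mean of at least 10 CPM. Depth was about equal in all libraries, and the 3 or 4 libraries per group limit precision.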
